A study of Mus musculus with 4 samples.

Results

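The genes described here are Srf, its cofactor genes Mkl1 and Mkl2, and 7 of its targets of the actin cytoskeleton, namely Actb, Actg1, Tpm1, Cnn2, Tagln, Flna and Vcl. They were taken by name from the deposited expression table, and all 10 were found among its 19991 genes. RNA-seq had been performed on in vitro cultured wild-type mouse spermatogonia, the mitotic germ cells of the testis, with 2 libraries of undifferentiated spermatogonia (SG) kept with DMSO and 2 libraries of differentiating spermatogonia (dSG) kept with retinoic acid (RA) for 36 h. Both groups came from cultures in Stempro34 medium with bFGF, GDNF, EGF and ESGRO, started from sorted CD9+/c-Kit- cells of neonatal testes. The methods describe a transfer into Matrigel-coated dishes for RA treatment, and name feeder cells for the proteomic samples. They do not say whether the SG and dSG cells sequenced here shared the same substrate or feeders. As to strain, the labels give C57BL/6 while the methods give DBA mice or their F1 with GFP mice, and the RA dose is written as 100 µM in the labels and as 100 nM in the methods. Whether the 2 libraries of a group stem from different cultures is not stated, and every p-value below therefore covers just the variation between these libraries, which could be technical.

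SRF, the serum response factor, binds a short DNA element called the CArG box, and the genes it drives depend on the cofactor that joins it. Myocardin-related transcription factors, encoded by Mkl1 (also Mrtfa) and Mkl2 (also Mrtfb), are held by free actin monomers and enter the nucleus when actin polymerizes. They then raise genes for actin itself and for proteins that bind it. Ternary complex factors such as ELK1, which answer to ERK signalling, guide SRF to immediate-early genes instead. Undifferentiated spermatogonia grow as tight clusters under GDNF and FGF, and RA starts their differentiation.

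The libraries held from 7484560 reads (SG replicate 1) to 26953654 (SG replicate 2), and SG replicate 1 stood apart. Values are reads per gene over a library size factor, as the authors deposited them, and are called normalized counts below, with replicate 1 given first wherever a pair of values is listed for a group. Log2 differences are differences of log2(normalized count + 4), dSG minus SG. They were tested with limma over 14108 genes with at least 20 normalized counts in at least 2 libraries. A difference given as a fold between the groups is instead the ratio of their mean normalized counts, and was not itself tested. Lars2 took 18.3% of the reads in SG replicate 1 against 3.66% to 5.60% in the other 3. The log2 difference between replicates had an SD of 0.81 across genes in SG and 0.20 in dSG. Across these genes, which are not independent replicates, the difference of SG replicate 1 minus SG replicate 2 rose with the GC content of the transcript (Spearman correlation 0.73). Values after a correction of each library for GC content are therefore given for the members and for the main results on other genes.

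The promoters of Srf and of 3 of its targets held a match to the CArG box, the element described above, and these matches are shown with their surroundings. RefSeq promoter windows (GRCm38.p6, 250 bases before to 50 after a start site) were matched for 8 of the 10 genes, that is, all but Actb and Tagln. The search was for the CArG box with its consensus letters, a pair of C, a run of A or T and a pair of G, which reads the same on both strands, and overlapping matches were allowed. It was found in 4 of the 8 genes, against 488 of 27025 genes with such a window (1.81%). The members were picked as Srf, its cofactors and known targets, so setting these shares side by side is not a test. In each of the following stretches of 30 bases the capitals mark the CArG box.
Srf, distal box: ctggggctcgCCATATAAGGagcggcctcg
Srf, proximal box: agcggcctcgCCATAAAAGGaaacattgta
Actg1: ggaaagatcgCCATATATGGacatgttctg
Cnn2: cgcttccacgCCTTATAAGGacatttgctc
Vcl: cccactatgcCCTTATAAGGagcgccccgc
They lie at chr17:46556225-46556254 and chr17:46556205-46556234 on the minus strand for Srf, at chr11:120348566-120348595 on the minus strand for Actg1, at chr10:79988534-79988563 on the plus strand for Cnn2, and at chr14:20929161-20929190 on the plus strand for Vcl. The boxes start 82 and 62 bases before the start site of Srf, 90 before that of Actg1, 56 before that of Cnn2 and 227 before that of Vcl. Cnn2 and Vcl hold the same letters in the box. No match was found in the windows of Mkl1, Mkl2, Tpm1 and Flna, which says only that these letters are not in these windows. Among other genes known as targets of SRF with its MRTF cofactors, 5 of 23 with a window held the element (21.7%). A match is a description of the sequence and not of binding.

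Of the 10 genes, 7 had both dSG libraries below both SG libraries, and Mkl2, Vcl and Tagln had both dSG libraries above. Over all tested genes, 32.7% had both dSG libraries below and 33.2% both above, so groups that do not overlap are common here. Limma called 1 of the 9 tested members lower, Cnn2, at an adjusted p under 0.05, where 4.91% of all genes were called lower. It called 0 members higher, where 1.16% of all genes were called higher. At an unadjusted p under 0.05 by limma, Srf, Tpm1, Flna and Actb were lower beside Cnn2, where 16.3% of all genes were lower, and Mkl2 was higher, where 10.5% of all genes were. EdgeR and DESeq2 likewise called 0 members higher. Without SG replicate 1 limma called 6 members lower and 2 higher, where 28.8% of all genes were called lower and 31.0% higher. Without SG replicate 2 it called 7 members lower and 1 higher, where 42.7% of all genes were called lower and 38.5% higher. With sample quality weights 3 members were called lower, where 6.93% of all genes were. Each SG library had a weight of 0.175 and each dSG library 5.70, so this fit does not set SG replicate 1 apart from SG replicate 2. In both fits that leave out an SG library the spread is that of the dSG pair, and the lone SG library is assumed to vary like it. The median log2 difference of the 9 was -0.60, and that of all tested genes was 0.01. After the GC correction these medians were -0.37 and 0.08.

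**Figure D1:**
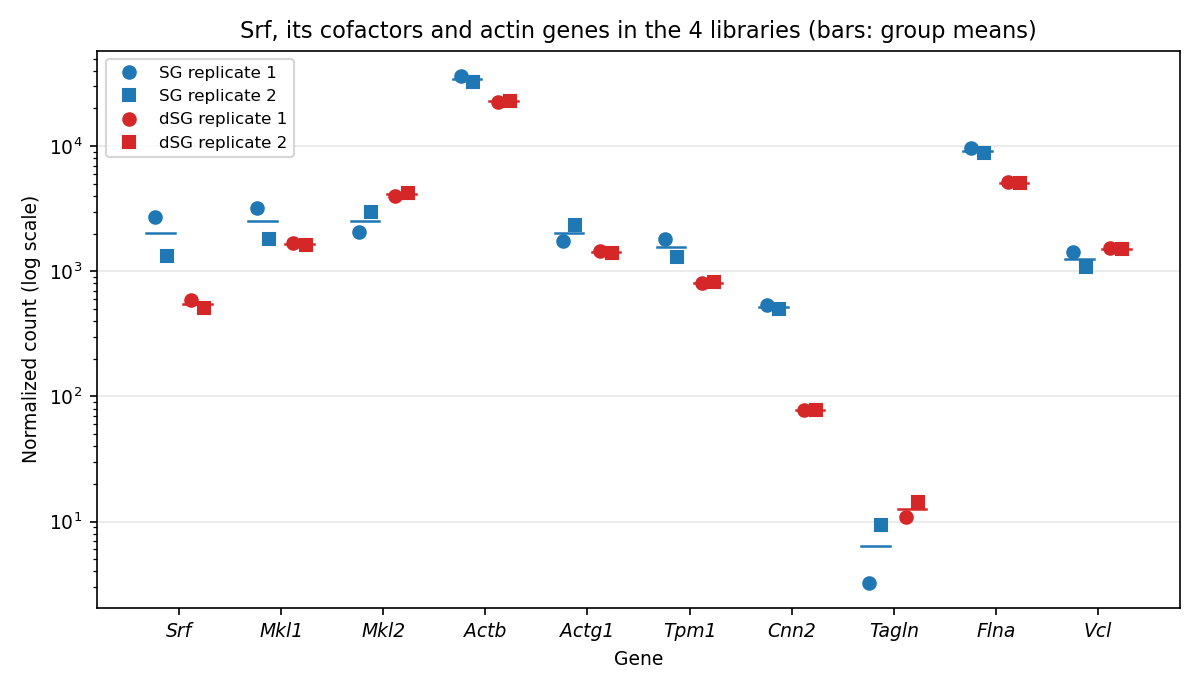
Normalized counts of the 10 genes in each of the 4 libraries, on a log scale, with a bar at the mean of each group. Cnn2 went from 541 and 503 in SG to 77.6 and 78.2 in dSG, Srf and Mkl1 differed between the SG libraries, and Tagln stayed under 20 in each library.

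Srf itself was lower in both dSG libraries than in either SG library, but the SG libraries differed by a factor of 2.04 from each other. Srf (ENSMUSG00000015605) spans 46548329 to 46556175 of chromosome 17 in GRCm38, the build of all coordinates here. The libraries gave normalized counts of 2708 and 1328 for SG, against 593 and 506 for dSG. The groups did not overlap, and in counts, though not on the log2 scale, the gap between the SG libraries was larger than that from SG replicate 2 to the dSG libraries. The mean was 2018 ± 976 for SG against 550 ± 62.0 for dSG (SD, n = 2), a 3.67-fold difference. The log2 difference was -1.78 (95% confidence limits -2.82 and -0.74, limma adjusted p = 0.0767, after Benjamini and Hochberg). Srf has a GC content of 64.4%, above 99.3% of the tested genes. After the GC correction its log2 difference was -0.82 (adjusted p = 0.0182 from limma), and without SG replicate 1 it was -1.27. DESeq2 on the recovered reads gave -1.80 (adjusted p = 1.04e-04), and edgeR gave -1.82 (adjusted p = 0.0575). Srf was a gene that the study picked out from these same libraries, so its direction is not independent evidence.

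Mkl1 and Mkl2, the genes of the MRTF cofactors, differed in sign on the deposited scale but not after the GC correction, which turned Mkl1, and neither passed limma. Mkl1 (ENSMUSG00000042292; chromosome 15, 81012281 to 81190757) was at 3230 and 1804 for SG, against 1686 and 1630 for dSG. SG replicate 1 stood alone, and the other 3 libraries lay close together. Its log2 difference was -0.54 (95% confidence limits -1.41 and 0.33, limma adjusted p = 0.334). Without SG replicate 1 it was -0.12, and after the GC correction its sign turned, to 0.17 (adjusted p = 0.275 from limma). Mkl1 has a GC content of 58.6%, so it shares with Srf a place at the GC-rich end where SG replicate 1 was high.
Mkl2 (ENSMUSG00000009569; chromosome 16, 13256481 to 13417529) was at 2060 and 2968 for SG, against 4032 and 4208 for dSG. Both dSG libraries were above both SG libraries, and the means were 2514 ± 642 for SG against 4120 ± 125 for dSG (SD, n = 2), a 1.64-fold difference. Limma gave a log2 difference of 0.74 (95% confidence limits 0.09 and 1.38, adjusted p = 0.154). After the GC correction it was 0.84 (adjusted p = 0.0513 from limma), and leaving out SG replicate 1 or 2 gave 0.47 or 0.998. The difference between the changes of Mkl1 and Mkl2 was not tested.

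The order of the 3 regulators within a library turned around between the groups. Per kb of the longest annotated transcript, the normalized count of Srf was 1035 and 508 in the SG libraries, that of Mkl1 was 735 and 411, and that of Mkl2 was 248 and 358. In the dSG libraries Mkl2 came first with 486 and 507 per kb, Mkl1 was at 384 and 371, and Srf was last with 227 and 193. The order was thus Srf, Mkl1, Mkl2 in both SG libraries and Mkl2, Mkl1, Srf in both dSG libraries. The ratio of Mkl2 to Mkl1 per kb was 0.338 and 0.871 in SG, and 1.27 and 1.37 in dSG. The ratio of Srf to Mkl1 was 1.41 and 1.24 in SG, and 0.591 and 0.521 in dSG. These levels are a description with no test. They rest on the length of 1 transcript per gene, and the 3 genes differ in GC content (Mkl2 49.7%).

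**Figure D2:**
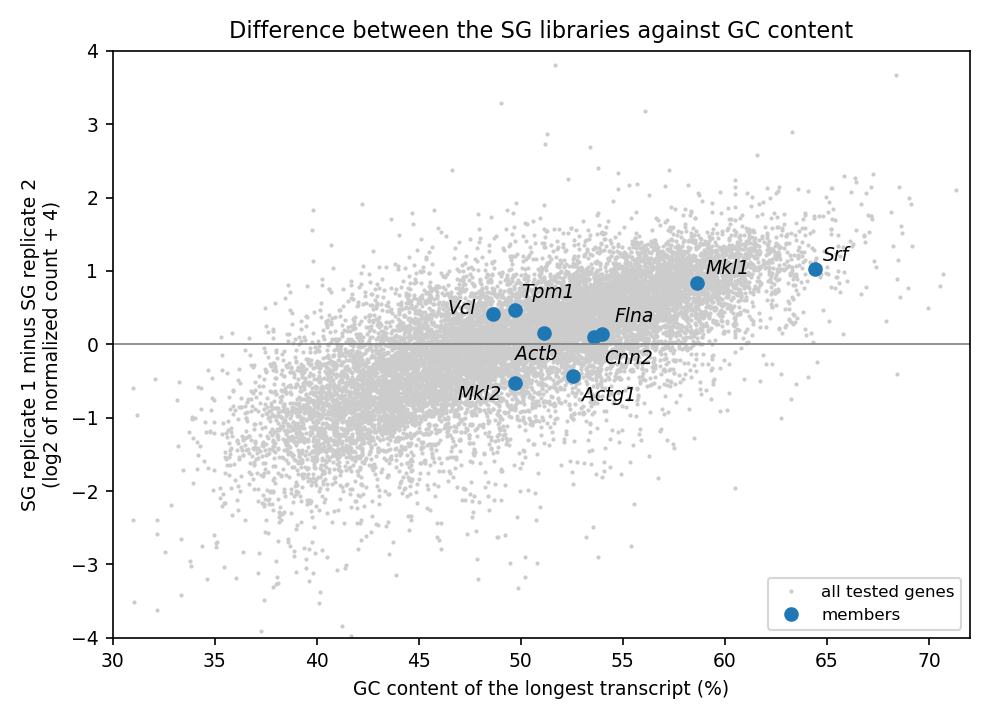
Log2 ratio of SG replicate 1 over SG replicate 2 against the GC content of the longest transcript, for all tested genes (grey) and the 9 tested members (blue). Srf (64.4% GC) and Mkl1 (58.6%) lay at the GC-rich end with differences of 1.03 and 0.84, whereas Cnn2 and Flna lay near 0 with 0.10 and 0.14.

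Cnn2 fell 6.70-fold in dSG, and among the 9 tested members its SG libraries lay closest together, at a log2 difference of 0.10. It encodes calponin 2, an actin-binding protein found in many cells outside smooth muscle. The gene (ENSMUSG00000004665) spans 79988584 to 79996062 of chromosome 10, and no annotated gene overlaps its exons. Its normalized count was 541 and 503 for SG, against 77.6 and 78.2 for dSG. These values come from 166, 799, 107 and 125 reads. The groups were far apart and the replicates near each other, with means of 522 ± 27.0 for SG against 77.9 ± 0.44 for dSG (SD, n = 2). The log2 difference was -2.68 (standard error 0.21, 95% confidence limits -3.23 and -2.13, limma adjusted p = 0.0237), and it ranked 52 of 14108 genes by p-value. It passed limma without each library in turn, at -2.63 to -2.73, and after the GC correction at -2.31 (adjusted p = 0.00418). EdgeR gave -2.71 (adjusted p = 0.0202). After the GC correction 3 members, Cnn2, Srf and Tpm1, were called lower, where 11.5% of all genes were, and DESeq2 called 2, Cnn2 and Srf, where it called 9.27% of all genes lower.

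Actb and Actg1 encode the cytoplasmic β- and γ-actin that make up the filaments of cells outside muscle, and both were somewhat lower in dSG without passing limma. Actb (ENSMUSG00000029580; chromosome 5, 142903115 to 142906754) was at 36317 and 32764 for SG, against 22630 and 22994 for dSG. The libraries of each group were close, and the groups did not overlap. Limma gave a log2 difference of -0.60 (95% confidence limits -1.08 and -0.11, adjusted p = 0.138), and it was -0.37 after the GC correction (adjusted p = 0.0557) and -0.09 under quantile normalization (adjusted p = 0.696).
Actg1 (ENSMUSG00000062825; chromosome 11, 120345690 to 120348542) was at 1737 and 2337 for SG, against 1455 and 1403 for dSG. Here SG replicate 1 was the lower of the SG pair, unlike for Srf and Mkl1. The log2 difference was -0.49 (95% confidence limits -1.08 and 0.09, limma adjusted p = 0.236), and it became -0.71 when SG replicate 1 was left out or -0.28 when SG replicate 2 was. After the GC correction it was -0.18 (adjusted p = 0.629 from limma). In GENCODE M21, 57.8% of the longest Actg1 transcript is shared at 97% identity or more with 4 other loci, among them Actg-ps1, so its reads cannot be assigned with certainty. By the same search no stretch of the Actb transcript was shared.
Per kb of transcript, Actb was at 17990 ± 1309 for SG against 11881 ± 134 for dSG (SD, n = 2), and Actg1 at 1044 ± 217 and 732 ± 18.8. The ratio of Actb to Actg1 per kb lay between 14.3 and 21.3 in the 4 libraries, and the 2 dSG libraries were within the range of the SG pair.

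Actb also served as the reference gene in the RT-PCR of the study, so the members were set against it within each library. Relative to Actb, the Srf count was 7.46% and 4.05% in SG and 2.62% and 2.20% in dSG. Mkl1 was 8.89% and 5.51% of Actb in SG and 7.45% and 7.09% in dSG, so on this scale its groups overlapped. Mkl2 was 5.67% and 9.06% in SG and 17.8% and 18.3% in dSG. Counting from Actb moves each log2 difference up by 0.60, to -1.19 for Srf, 0.06 for Mkl1, 1.33 for Mkl2, 0.89 for Vcl, 0.10 for Actg1, -0.33 for Tpm1, -2.08 for Cnn2 and -0.25 for Flna, with no test.

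**Figure D3:**
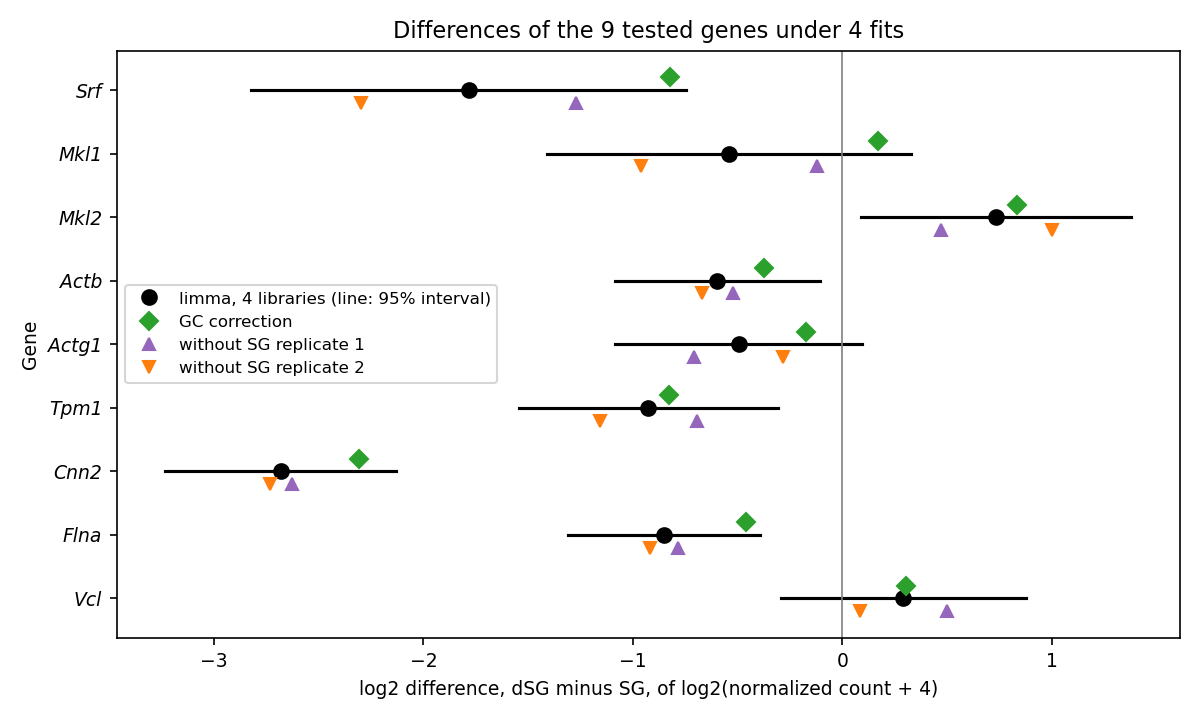
Log2 difference of dSG minus SG for the 9 tested genes from limma over 4 libraries (black, with the 95% confidence interval), after the GC correction (green), and without SG replicate 1 (purple) or SG replicate 2 (orange). Cnn2 stayed between -2.31 and -2.73 in these fits, whereas Srf ranged from -0.82 to -2.30 and Mkl1 crossed 0.

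Among the proteins that bind and order filaments, Tpm1 and Flna were at lower values in dSG. Tpm1, which encodes a tropomyosin that winds along actin filaments (ENSMUSG00000032366; chromosome 9, 67022590 to 67049406), was at 1812 and 1311 for SG, against 800 and 819 for dSG. Both SG libraries were above both dSG libraries. For dSG minus SG the log2 value was -0.93 (95% confidence limits -1.54 and -0.31, limma adjusted p = 0.0969), and after the GC correction it was -0.83 (adjusted p = 0.0342).
Flna encodes filamin A, which crosslinks filaments and ties them to the membrane (ENSMUSG00000031328; chromosome X, 74223461 to 74249820). Its normalized count was 9653 and 8787 for SG, against 5151 and 5060 for dSG. Like Cnn2 it differed little between replicates, with means of 9220 ± 612 for SG against 5105 ± 64.5 for dSG (SD, n = 2), a 1.81-fold difference. Its log2 difference came to -0.85 (95% confidence limits -1.31 and -0.39, limma adjusted p = 0.0679), and it was -0.46 after the GC correction (adjusted p = 0.0601).

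Vcl, which encodes vinculin, a protein of focal adhesions and cell junctions that anchors actin, was not lower in dSG. Vcl (ENSMUSG00000021823) spans 20929398 to 21033676 of chromosome 14. Its normalized counts were 1434 and 1074 for SG, against 1546 and 1495 for dSG. The dSG libraries were just above SG replicate 1, and the distance between the SG libraries was larger than that gap. The log2 difference was 0.29 (95% confidence limits -0.29 and 0.88, limma adjusted p = 0.416), and it was 0.31 after the GC correction, 0.50 without SG replicate 1 and 0.08 without SG replicate 2. Ap3m1 overlaps 25.5% of the exon bases of Vcl on the opposite strand, and the strand setting of the counting is not given in the sources used here. Thus Cnn2 and Vcl, which carry the same letters in the CArG box, had log2 differences of -2.68 and 0.29.

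Tagln, which encodes transgelin, a protein of smooth muscle and fibroblasts and a common reporter of SRF activity, was barely detected. The gene (ENSMUSG00000032085; chromosome 9, 45929619 to 45936058) had 1 and 15 reads for SG, against 15 and 23 for dSG. The normalized counts were 3.26, 9.44, 10.9 and 14.4, so it was under the filter on low values and was not tested. Gm48529 and Pcsk7 overlap its exons on the opposite strand, the larger overlap covering 62.4% of the exon bases. Among other targets of SRF, a pair chosen after the values were seen was likewise low. Acta2, the actin of smooth muscle, was at 0 and 0.63 in SG and 14.5 and 21.3 in dSG, and Ctgf, a target of SRF and of YAP, was at 0 and 3.78 in SG and 16.0 and 18.2 in dSG. The other MRTF targets and paralogues of the members under the filter did not share 1 direction. Tgfb1i1 was higher in both dSG libraries, Cyr61, Cnn1, Actc1 and Actg2 overlapped between the groups, and Acta1 and Tagln3 were lower in both dSG libraries. Tagln3 was at 48.9 and 17.6 in SG and 5.80 and 5.63 in dSG. The summed count of the 15 fibroblast and feeder markers was 34860 and 17290 in SG and 7939 and 7864 in dSG. Its members went both ways: 6 had both dSG libraries above both SG libraries and 5 had both below. Over all tested genes these shares were 33.2% and 32.7%. Col5a1, Fn1, Pdgfra and Col1a1 were among the 5. Low markers named after their values were seen were among the 6. Dcn was at 0 and 0.63 in SG and 5.08 and 4.38 in dSG, and Lum at 0 and 0.63 in SG and 8.70 and 6.88 in dSG. In these bulk samples fewer cells of a type and less RNA per cell cannot be told apart, and the part of other cells in these values was not tested.

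Around the members, 5 lists of related genes were read from the same fit. They were written with earlier results of these data known, so they are described by counts and medians only. Of all tested genes limma called 4.91% lower and 1.16% higher. After the GC correction 11.5% of all genes were called lower, and 1535 of 14102 genes higher. Of 4 other cofactors of SRF tested, limma called 0 higher and 0 lower, also at an unadjusted p under 0.05, and the median log2 difference was 0.11. Scai, a suppressor of MRTF activity, was at 609 and 1736 in SG and 2104 and 2382 in dSG, a log2 difference of 1.12 (adjusted p = 0.255 from limma) and 0.16 after the GC correction. Elk3 and Elk4, ternary complex factors, had -0.56 and 0.13. Myocd, which encodes myocardin, the cofactor of cardiac and smooth muscle, had a normalized count of 1.88 in dSG replicate 2 and 0 in the other 3 libraries.
Of 12 paralogues of the members considered, 6 were tested, and limma called 0 higher and 0 lower (median -0.86), while after the GC correction the median was -0.54, with 0 called higher and 2 lower (Flnc and Tagln2). Flnc, the filamin of muscle, had a log2 difference of -1.77 (adjusted p = 0.0653 from limma), at 5025 and 2645 in SG and 1095 and 1038 in dSG. Tagln2, the transgelin of cells outside muscle, had -0.98 (adjusted p = 0.105 from limma), at 2584 and 1725 in SG and 1084 and 1051 in dSG. Tpm2, another tropomyosin gene, had -1.24 (adjusted p = 0.196 from limma), at 192 and 79.3 in SG and 55.9 and 45.1 in dSG, and leaving out 1 library gave -1.86 to -0.62. For these 3 genes, named by the smallest p-values of the list, both dSG libraries were below both SG libraries. Of the 12 paralogues 6 were below in this way and 1 above, where 32.7% and 33.2% of all tested genes were. Tpm4 and Cnn3, also tested, overlapped between the groups.

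Over all tested genes 49.2% had a negative log2 difference, and limma called 1.16% higher and 4.91% lower. Among 26 tested genes known as targets of SRF with MRTF, 20 had a negative and 6 a positive log2 difference, with a median of -0.65, and limma called 0 higher and 1 lower. The gene that fell was Gsn, which encodes gelsolin, a protein that severs and caps filaments. It was at 1776 and 766 in SG and 103 and 132 in dSG, a log2 difference of -3.28 (adjusted p = 0.0346 from limma) and -2.67 after the GC correction (adjusted p = 0.00658). Itga5, the fibronectin receptor subunit, had -1.06 (adjusted p = 0.0728 from limma), and Myl9, a regulatory light chain of myosin, had -1.42 (adjusted p = 0.0747), and after the GC correction these were -0.45 and -0.84. After the GC correction the median of the list was -0.25, and 1 gene was called lower (Gsn) and 1 higher (Fhl1, which encodes a LIM domain protein and is named here after its value was seen).
The 8 immediate-early genes that SRF serves with ternary complex factors all had negative log2 differences, with a median of -1.56. Of them 4 fell by limma, where 4.91% of all genes were called lower. Egr3 fell from 1206 and 761 to 25.4 and 21.3, a log2 difference of -5.14 (adjusted p = 0.0237 from limma). For Egr2 the log2 difference was -4.64 (adjusted p = 0.0237), for Egr1 it was -2.17 (adjusted p = 0.0244), and for Nr4a1 it was -1.56 (adjusted p = 0.0405). The median of the list after the GC correction was -1.001, and the same 4 genes were called, Egr3 at -4.90, Egr2 at -4.39, Egr1 at -1.55 and Nr4a1 at -0.97. These genes encode transcription factors that are switched on by growth factor signalling, and for the other 4 the values lay between -0.34 and -1.56. The difference between this list and the MRTF targets was not tested.

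**Figure D4:**
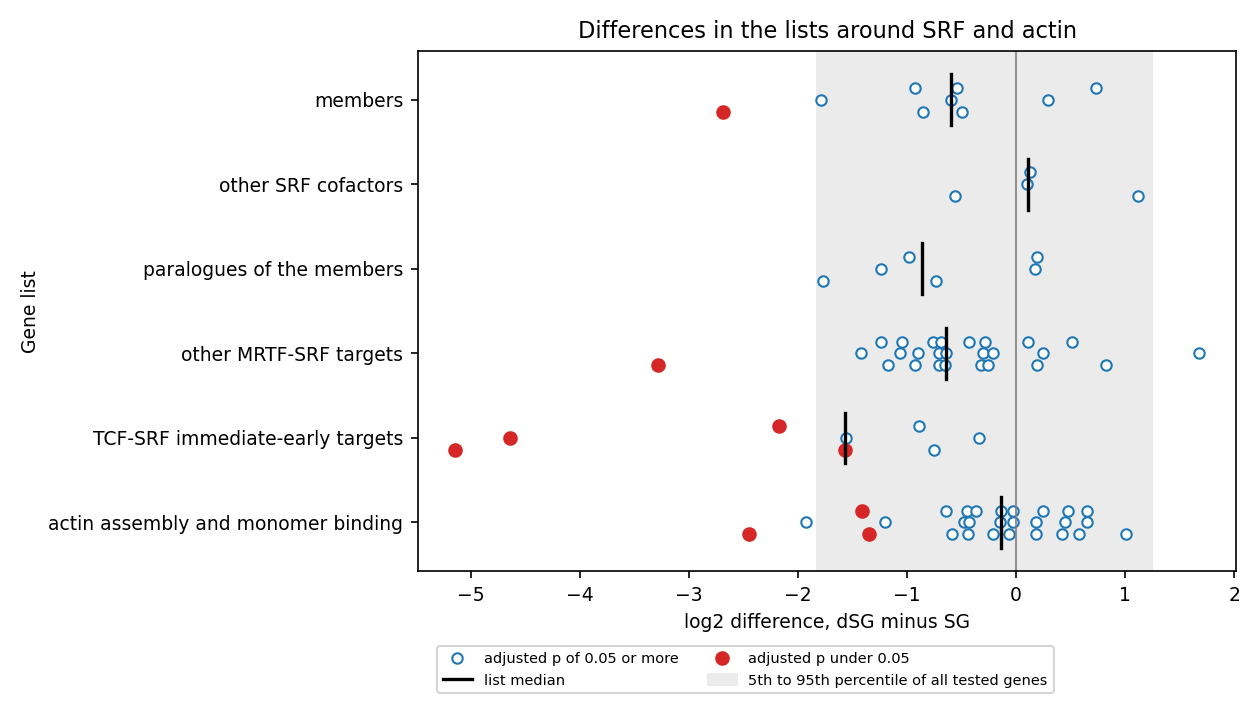
Log2 difference of dSG minus SG for each tested gene of 6 lists, with genes at an adjusted p under 0.05 filled in red, the median of each list as a black bar, and the 5th to 95th percentile of all tested genes in grey. The medians were -0.60 for the members, -0.65 for other MRTF targets, -1.56 for the immediate-early genes and -0.14 for the genes of filament assembly.

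Of 28 genes of filament assembly and monomer binding, limma called 0 higher and 3 lower (median -0.14). Of all tested genes it called 1.16% higher and 4.91% lower. Cotl1, coactosin-like protein, which binds filaments, fell from 1225 and 763 to 189 and 161, a log2 difference of -2.44 (adjusted p = 0.0300 from limma). Cap2, a cyclase-associated protein, fell by 1.34 on the log2 scale (adjusted p = 0.0432 from limma), and Twf2, a twinfilin, which binds monomers, fell by 1.41 (adjusted p = 0.0463). Cap2 went from 372 and 393 to 137 and 160, and Twf2 from 1157 and 848 to 376 and 364. With the GC correction 1 gene was called higher (Evl) and 4 lower (Cotl1 at -1.71, Cap2 at -1.40, Twf2 at -0.81, and Vasp), where Evl and Vasp, which encode proteins that promote filament growth, are named after their values were seen. Over all genes that correction called 11.5% lower, and 1535 of 14102 genes higher.

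Markers of the cultured cells and of other cells were read beside these results. Among spermatogonial markers, Kit and Stra8 rose by log2 differences of 4.12 and 7.33, and Gfra1 and Lin28a fell by 1.43 and 1.02. Of 15 fibroblast and feeder markers 7 were tested, of which 4 had a negative and 3 a positive log2 difference. Limma called 2 higher, Thbs1 by 2.12 and Fbn1 by 1.45, and 1 lower, Pdgfra by 2.69. The lowest value was that of Col1a1, at -3.05, from 5635 and 1459 in SG to 395 and 296 in dSG. Col5a1 had -2.56, from 19873 and 6355 in SG to 1982 and 1818 in dSG. Both are named after their values were seen, and neither was called by limma (adjusted p = 0.0794 and 0.0792). Most of the summed count of this list, given above, came from Col5a1 and Fn1, while Col3a1, Dcn, Lum, Fap, Loxl1 and S100a4 stayed under 10 in each library. The sum of the myoid and smooth muscle markers was 228 and 119 in SG and 86.3 and 106 in dSG. Des had -1.37 and Myh11 -1.23 (-1.85 to -0.62 when 1 library was left out). Acta2, also on this list, went the other way, from 0 and 0.63 in SG to 14.5 and 21.3 in dSG. Actg2, Cnn1 and Lmod1 overlapped between the groups, and like Acta2 they were under the filter and not tested. Sertoli cell markers summed to 704 and 415 in SG and 200 and 205 in dSG. Among them Sox9 fell by 2.55, from 460 and 246 to 53.0 and 55.7, and made up most of the SG sum. Amh had -1.92, and Gata1 had -0.31 with a sign that turned after the GC correction. Wt1 had 0.15 and overlapped between the groups, at 91.2 and 71.7 in SG and 86.3 and 94.5 in dSG. Fshr had reads only in dSG replicate 2, at 0.63. Endothelial markers summed to 411 and 435 in SG and 117 and 127 in dSG, with Pecam1 lower by a called log2 difference of -2.32, Kdr at -1.34 (called after the GC correction, at -1.26) and Cdh5 at -0.48. Leydig cell markers summed to 215 and 317 in SG and 367 and 351 in dSG (Star 0.40, Cyp17a1 0.75, neither called). Nearly all of this sum came from Star and Cyp17a1, while Cyp11a1, Hsd3b1 and Insl3 had at most 2.52 in any library. Markers of macrophages and blood summed to 179 and 210 in SG and 150 and 154 in dSG. Among these Cd68 had -0.25 and Csf1r -0.15, both with a sign that turned after the GC correction. The part of other cells in the results for the members was not tested.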

How the data were processed

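All 4 libraries were used, 2 of SG and 2 of dSG, in 1 comparison. The deposited signal is a normalized count per gene, for which the authors aligned directional paired-end reads to GRCm38 with Subread, counted them with featureCounts 1.5.3 and scaled by library size factors. Whole reads were recovered for 100% of the values within 0.01 of a read. The deposited log2 fold changes, scores (Wald statistics) and p-values are the authors' DESeq2 results and were not used.

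Limma 3.58.1 (trend) was run on log2(normalized count + 4) for genes with at least 20 in at least 2 libraries, with no term but condition. Calls are at a Benjamini-Hochberg adjusted p under 0.05. EdgeR 4.0.16 and DESeq2 1.42.0 were run on the recovered reads. GC content came from GENCODE M21 transcripts, for 19975 of 19991 genes, and the GC correction was run on 14102 genes that passed the filter. It removed a loess fit (span 0.3), on GC content, of the deviation of each library from the gene's mean over the libraries. A difference between the groups that follows GC content is thus removed as well. On simulated data limma called 6% of 2-fold and 63% of 4-fold changes (13868 genes, libraries of equal quality), and its median estimate of the latter, a log2 change of 2, was 1.83. On the log2(value + 4) scale the true median is 1.98, and the test was set to that scale after it had failed against 2 at a tolerance of 0.15. The rest of the shortfall is unexplained. The members and lists were chosen with earlier results of these data known, and some listed genes are not reported here. Named genes are all members, and in each other list the called genes (at most 4), or the smallest p-values up to 3 genes. Alternatives were other scalings, filters, pseudocounts, sample weights, tests, the replicate number as a block, and leaving out each library.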

Additional observations from a re-analysis of the deposited data

How the results depend on the processing

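With 2 libraries per group, the calls rest on the spread of the SG pair. Limma called 164 genes higher and 692 lower. The count of higher genes was 108 without a filter, 47 under the stricter filter of 40 in every library, 304 with sample quality weights, 493 by DESeq2 and 1535 after the GC correction, and that of lower genes was 977 with sample quality weights, 273 under the stricter filter, 1458 by DESeq2 and 1625 after the GC correction. Leaving out 1 library gave 41 to 5431 higher and 434 to 6021 lower genes, and 0 to 2 members higher and 1 to 7 lower. The most calls came without an SG replicate, when the spread is that of the dSG pair. Members called lower numbered 3 with sample quality weights (Cnn2, Srf and Flna), 2 by DESeq2 and 3 after the GC correction. The GC correction turned Mkl1 to 0.17, Gata1 to 0.16, Cd68 to 0.089 and Csf1r to 0.28, and leaving out 1 library gave ranges that crossed 0 for Elk4 (-0.12 to 0.38), Gata1 (-0.67 to 0.060) and Csf1r (-0.60 to 0.31), each turned without SG replicate 1. The cause was not tested.

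The labels give no sign that a replicate number pairs libraries, and the replicate differences of SG and dSG had a correlation of 0.23 across genes. With the replicate block, 1150 genes were higher and 1790 lower, and 3 members were lower. With the replicate block and the GC correction, these were 2022, 2025 and 3, with 1 member higher (Mkl2), and the values of Mkl1, Gata1, Cd68 and Csf1r were 0.17, 0.16, 0.089 and 0.28. Cnn2 passed in each alternative run. Of the 608 values for single genes, without those that leave out a library, 552 kept direction and call, 34 newly passed, 14 no longer passed and 8 turned.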
